A study of Homo sapiens with 6 samples.

Results

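The genes described here are the 3 GADD45 genes and 7 kinase genes of the JNK and p38 stress cascades, taken by symbol from the deposited count table. They are GADD45A, GADD45B, GADD45G, MAP3K5, MAP2K3, MAP2K4, MAP2K7, MAPK8, MAPK9 and MAPK14, which is 10 of 65746 symbols. All 10 had at least 1 count, and 9 had enough counts to be tested. RNA sequencing was done on SU-DHL-8 cells, a line established from a human large B-cell lymphoma and labelled WT for genotype. One group was treated with 100 nM erianin, a natural bibenzyl known from Dendrobium orchids, for 24 h, and the other received DMSO, its solvent, for the same time. Each group had 3 libraries, labelled as replicate experiments of this single line. Whether they came from separate cultures is not stated, so the p-values reflect spread from library to library, some of which may be technical.

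JNK and p38 are MAP kinases that cells switch on under stress. Each stands at the end of a chain in which a MAP3K phosphorylates a MAP2K and the MAP2K phosphorylates the MAP kinase. MAP2K7 acts on JNK, MAP2K3 and MAP2K6 act on p38, and MAP2K4 can act on both. GADD45 proteins are small stress-induced proteins that bind MAP3K4 and MAP2K7, as well as PCNA and the CDK1 and cyclin B1 complex. In lymphocytes GADD45B is known as an NF-kB target that restrains MAP2K7. Phosphorylation switches these kinases, so transcript levels do not measure their activity.

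Total counts were 30956443 to 35588728 per library, so the floor of 3 counts equals 0.0843 to 0.0969 CPM (counts scaled to a common library total), which covers counting error only. All 7 B-cell markers examined were above the floor, and their summed level was 2764 to 3794 CPM with DMSO and 2325 to 2605 CPM with erianin. Summed T-cell markers stayed under 3.75 CPM, and monocyte markers went from 4.50 to 7.27 CPM with DMSO to 9.39 to 10.6 CPM with erianin, where S100A8 and S100A9 were listed at 0. The part of these few monocyte marker reads in the results was not tested. DMSO replicate 1 stood apart: the biological coefficient of variation was 0.292 and 0.295 against the other DMSO libraries, and 0.0380 between those. Counts of called genes are therefore given with and without that library.

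The 3 MAP2K genes were the members that changed, and they went in opposite directions. MAP2K3 rose 1.62-fold, MAP2K4 rose 1.6-fold, and MAP2K7 fell to 0.642 times its DMSO level. The 2 tested GADD45 genes, MAP3K5 and the 3 MAP kinase genes were not called. Of the 9 genes tested, 2 rose and 1 fell at an adjusted p under 0.05 (edgeR, over all 11550 genes tested). Over all genes tested, 24.2% were called, 11.8% higher and 12.3% lower, so 3 of 9 is near the background and is not a result about the members as a set. Their median log2 fold change was -0.01, and that of all genes was -0.003. Without DMSO replicate 1, 2 rose and 2 fell, where 55.3% of all genes were called, 27.8% higher and 27.4% lower. The medians were then -0.05 for the members and 0.03 for all genes. In bulk RNA, fewer cells with a transcript and less of it per cell cannot be told apart.

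**Figure D1:**
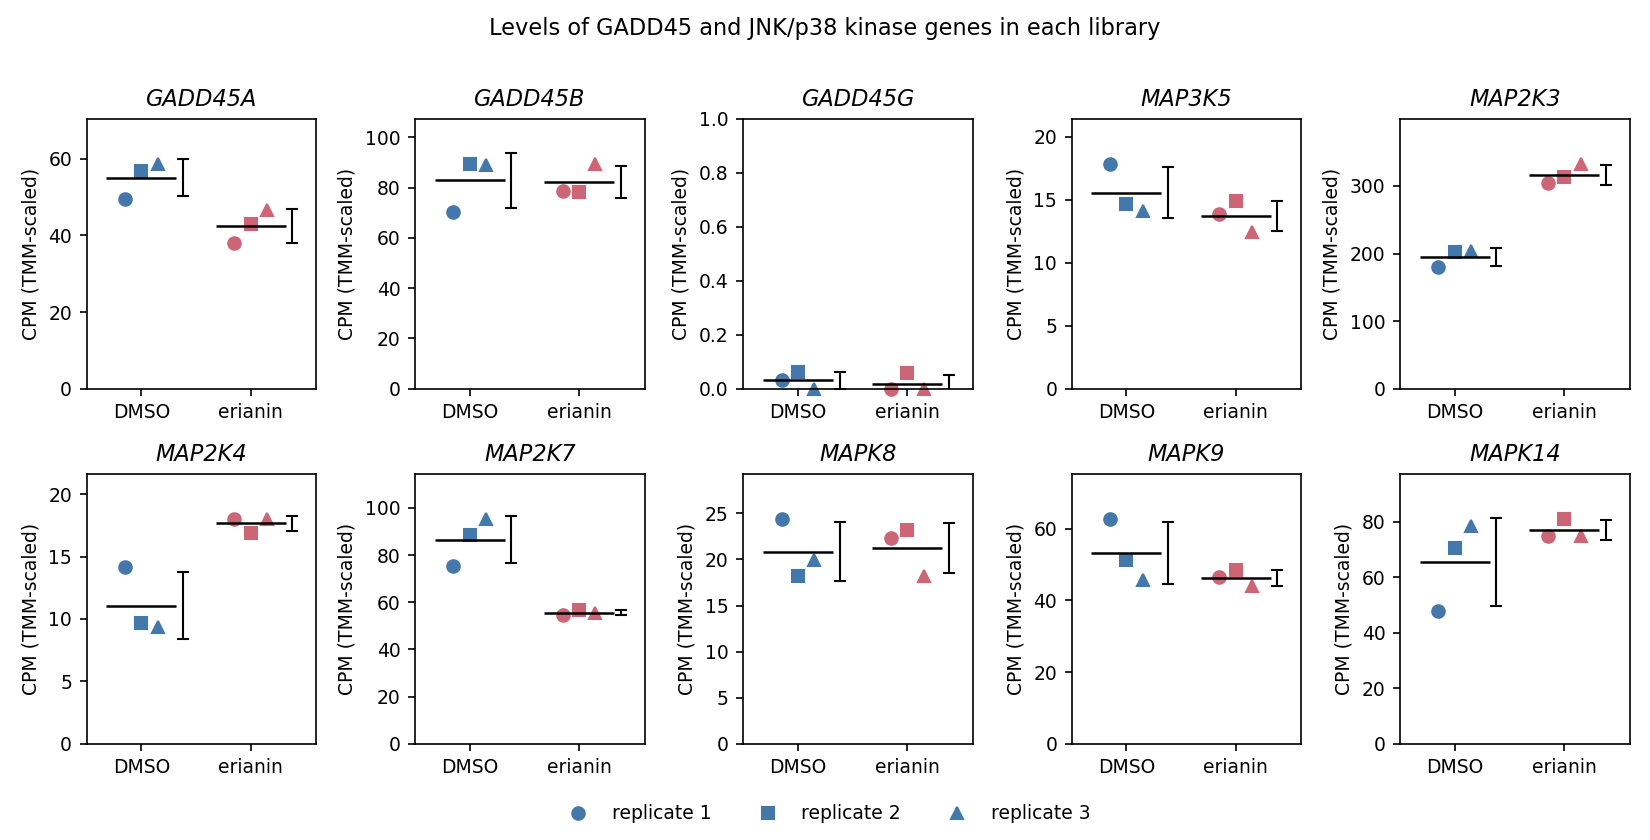
Level of each gene in each library, in CPM scaled by TMM (vertical axes start at 0 and differ between panels), for DMSO (blue) and erianin (red). Symbols mark the replicate number, horizontal lines the mean and bars 1 SD (n = 3). The erianin values of MAP2K3 and MAP2K4 lie above all DMSO values, and those of MAP2K7 and GADD45A lie below them. Such separation is not a call: pathway genes that were not called, such as MAP3K13 and RPS6KA4, showed it too. Its share over all tested genes was not computed.

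GADD45A encodes the founding member of the family, known for its induction by DNA damage (chromosome 1, 67685061 to 67688338, plus strand, GRCh38). Its level was 49.5, 56.9 and 58.7 CPM in DMSO replicates 1, 2 and 3, and 37.9, 42.9 and 46.7 CPM in erianin replicates 1, 2 and 3. All 3 erianin values were below all 3 DMSO values, as they also were in uncalled pathway genes such as MYC and BRCA1. How often this holds over all tested genes was not computed. With all 6 libraries it was not called (log2 fold change -0.37 ± 0.12 (SE), edgeR adjusted p = 0.066). Without DMSO replicate 1 it was called lower (-0.43 ± 0.08, edgeR adjusted p = 8.3e-05). It was also called lower by DESeq2 (adjusted p = 0.041) and, after offsets for length and GC content, by edgeR (adjusted p = 0.0086). In the other 14 of 17 alternatives it was not called. Upper-quartile and total-count scaling gave edgeR adjusted p = 0.14 and 0.15. On the log2(TPM + 1) and log2(TPM + 0.1) scales it was at -0.10 (limma adjusted p = 0.81), where the median of all genes was 0.20 and 0.28. No setting tried gave it a positive fold change.

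GADD45B, the NF-kB-responsive member (chromosome 19, 2476122 to 2478259, plus strand), was at 70.2, 89.5 and 88.9 CPM in the DMSO libraries. It had 78.7, 78.1 and 89.5 CPM with erianin, so the groups overlapped. DMSO replicate 1 gave the lowest of the 6 values. The log2 fold change was -0.01 ± 0.13 (edgeR adjusted p = 0.95), and -0.11 ± 0.07 without DMSO replicate 1 (edgeR adjusted p = 0.21). GADD45G, the third gene of the family (chromosome 9, 89605013 to 89606555), had 1, 2 and 0 counts with DMSO and 0, 2 and 0 counts with erianin. These are under the floor of 3 counts in every library, so no fold change is given.

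TPM, which divides counts by gene length, allows levels of different genes to be compared within a library. The lengths used are not given with the deposited values, and orders and shares between genes depend on them. GADD45B took 53.9% to 56.4% of the summed GADD45 TPM in the DMSO libraries and 60% to 63.1% in the erianin libraries. Its ratio to GADD45A was 1.17, 1.30 and 1.25 with DMSO and 1.713, 1.503 and 1.582 with erianin. The log2 ratio was higher by 0.37 with erianin. The exact permutation test, two-sided, returned p = 0.1 (0.2 adjusted over 4 gene ratios), and 3 libraries a group cannot reach a smaller p. A ratio within a library does not depend on how libraries are scaled.

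The tested genes whose profile over the 6 libraries was most like that of GADD45A were ARHGDIA, DERL3 and ELL. Likeness was the root mean square difference of log2 CPM (pseudocount 0.5), centred per gene, which was 0.0273 for ARHGDIA, 0.0363 for DERL3 and 0.0365 for ELL. The median over all other tested genes was 0.33. For GADD45B the most alike were REPIN1 (0.0155), EXOSC3 (0.0159) and FBXL12 (0.0275), against a median of 0.29. The genes named were picked as the closest, so they lie under these medians by construction. In REPIN1, as in GADD45B, DMSO replicate 1 was lowest, at 608.9 CPM against 685.6 to 783.7 CPM in the other libraries.

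MAP3K5 encodes ASK1, a MAP3K that thioredoxin holds inactive until the cell is oxidised (chromosome 6, 136557047 to 136792518, minus strand). Its level was 17.9, 14.7 and 14.2 CPM with DMSO and 13.9, 14.9 and 12.5 CPM with erianin. The groups overlapped, and DMSO replicate 1 was highest. It was not called (-0.18 ± 0.14, edgeR adjusted p = 0.39), nor without DMSO replicate 1 (-0.06 ± 0.11, edgeR adjusted p = 0.68). TXN, which encodes that thioredoxin, rose from 96.6 ± 4.66 to 132 ± 3.96 CPM (mean ± SD, n = 3; log2 fold change 0.44, edgeR adjusted p = 0.016).

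Promoter sequence is shown for the 3 MAP2K genes, since these are the members whose transcripts changed. The letters are RefSeq's (GRCh38.p14), 5′ to 3′ on the gene's own strand, from 250 bases before the RefSeq start up to the first base annotated as exon in GENCODE 29. The windows are chr17:21284461-21284671 for MAP2K3, chr17:12020627-12020823 for MAP2K4 and chr19:7903627-7903842 for MAP2K7, all on the plus strand. RefSeq gives MAP2K3 another start further into the gene, which is not shown. Capitals mark a GC box (GGGCGG) or a CCAAT box (CCAAT), read on both strands.
MAP2K3: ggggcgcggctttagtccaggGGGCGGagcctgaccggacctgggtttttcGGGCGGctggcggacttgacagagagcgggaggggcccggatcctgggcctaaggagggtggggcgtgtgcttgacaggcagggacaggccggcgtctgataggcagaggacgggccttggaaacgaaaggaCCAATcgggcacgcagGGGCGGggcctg
MAP2K4: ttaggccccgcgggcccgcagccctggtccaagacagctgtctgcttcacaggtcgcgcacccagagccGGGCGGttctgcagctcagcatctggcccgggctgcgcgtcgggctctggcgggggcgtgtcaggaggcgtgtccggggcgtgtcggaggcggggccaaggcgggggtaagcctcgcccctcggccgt
MAP2K7: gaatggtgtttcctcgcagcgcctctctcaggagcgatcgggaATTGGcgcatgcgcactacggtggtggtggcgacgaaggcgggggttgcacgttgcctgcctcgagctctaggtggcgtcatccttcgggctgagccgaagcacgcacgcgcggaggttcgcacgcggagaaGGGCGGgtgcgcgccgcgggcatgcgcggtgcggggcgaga

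All 3 windows were rich in G and C, at 69.2% for MAP2K3, 74.1% for MAP2K4 and 69.0% for MAP2K7. The GC box stood 3 times in MAP2K3 and once each in MAP2K4 and MAP2K7. Windows of the same length hold it in 37.5%, 34.3% and 38.4% of 35116 RefSeq promoters. A CCAAT box stood in MAP2K3 and, on the opposite strand, in MAP2K7, as it does in 28.9% and 29.4% of promoters. No match overlapped another. Searched on both strands with no match in these 3 windows were the AP-1 site TGANTCA, the cyclic AMP response element TGACGTCA, the heat shock core GAANNTTC and the E-box CACGTG. These letters stand in 6.57%, 1.65%, 5.78% and 6.34% of full 250-base windows. The core of the serum response element (0.0313%), the C/EBP-ATF element TGATGCAA (0.772%) and the TATA box TATAAA (10.7%) had no match either. The printed windows end before the RefSeq starts (21284711 for MAP2K3, 12020877 for MAP2K4 and 7903877 for MAP2K7). The bases next to those starts were therefore not searched, though the full 250-base windows include them.

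MAP2K3 encodes MKK3, an activator of p38 (chromosome 17, 21284672 to 21315240, plus strand). It had 180.3, 202 and 204 CPM in the DMSO libraries and 304, 313 and 333 CPM in the erianin libraries. Every erianin library was above every DMSO library, and the spread within each group was small (195 ± 13.1 and 317 ± 14.7 CPM, mean ± SD, n = 3). It rose (log2 fold change 0.70 ± 0.10, edgeR adjusted p = 0.0046). Its call held in all 17 alternative settings, with log2 fold changes of 0.60 to 0.97 and adjusted p up to 0.048. The largest, 0.96 and 0.97, came on the log2(TPM + 1) and log2(TPM + 0.1) scales, where the median of all genes was 0.20 and 0.28. Relative to that median MAP2K3 stood at 0.75 and 0.69. MAP2K6, which encodes the other p38-activating MAP2K, had 2 to 7 counts per library and was not tested. MAP2K3 therefore carried at least 99.9% of the TPM of this pair in each library.

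MAP2K4 encodes MKK4, which acts on JNK and on p38 (chromosome 17, 12020824 to 12143830, plus strand). Its level was 14.2, 9.71 and 9.33 CPM with DMSO and 18.1, 16.9 and 18.0 CPM with erianin. The groups did not overlap, and DMSO replicate 1 was nearest to the erianin libraries. It rose (0.68 ± 0.18, edgeR adjusted p = 0.032), and without DMSO replicate 1 by more (0.91 ± 0.11, edgeR adjusted p = 7.3e-08). The call ended without DMSO replicate 2 (edgeR adjusted p = 0.095) or 3 (0.087), and without erianin replicate 1 (0.11), 2 (0.10) or 3 (0.11). The log2 fold change was 0.56 to 0.72 in those fits. The pseudogene MAP2K4P1 had 0 to 8 counts per library against 315 to 661 for MAP2K4.

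MAP2K7 encodes MKK7, a JNK-specific MAP2K and the one that GADD45B binds (chromosome 19, 7903843 to 7914478, plus strand). It was at 75.6, 88.6 and 95.5 CPM with DMSO and 54.5, 56.7 and 55.3 CPM with erianin. The erianin libraries lay close together, below all DMSO libraries. It fell (-0.64 ± 0.12, edgeR adjusted p = 0.0096), as it did without DMSO replicate 1 (-0.72 ± 0.07, edgeR adjusted p = 3.7e-09). Its call ended without erianin replicate 1 (edgeR adjusted p = 0.065) or 2 (0.060), at log2 fold changes of -0.62 and -0.64. On the log2(TPM + 1) scale it was not called (-0.35, limma adjusted p = 0.39), where the median of all genes was 0.20. The TPM columns were not rescaled for that fit. The column of DMSO replicate 1 summed to 39.2% of the full TPM scale, and the others to 63.6% to 66.8%. Of its 5145 exonic bases, 438 (8.51%) are shared with an antisense gene, AC010336.4, and reads of the pair cannot be told apart if strand was ignored.

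**Figure D2:**
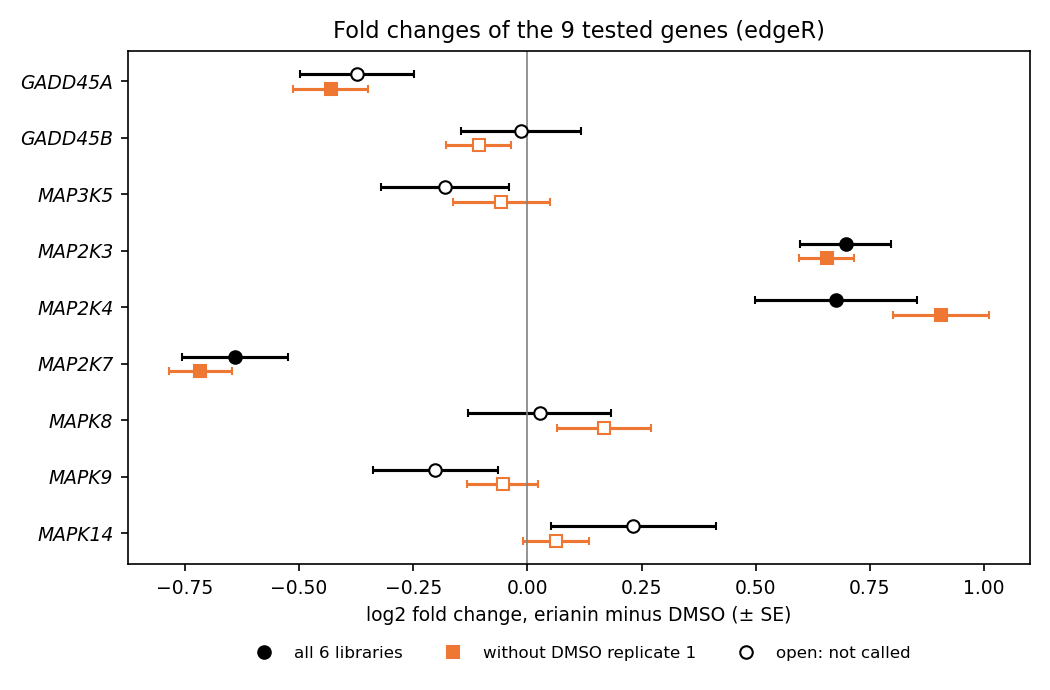
Log2 fold change (erianin minus DMSO) with its standard error from edgeR for the 9 tested genes, with all 6 libraries (black circles) and without DMSO replicate 1 (orange squares). Filled symbols are called at an adjusted p under 0.05. MAP2K3 and MAP2K4 are filled on the right and MAP2K7 on the left in both fits, and GADD45A is filled without DMSO replicate 1.

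The changes of MAP2K3 and MAP2K7 can also be read as shares of the MAP2K tier, on which no test was run. MAP2K7 held 31.8%, 33.3% and 34.8% of the summed TPM of MAP2K3, MAP2K4, MAP2K6 and MAP2K7 in the DMSO libraries. With erianin it held 16.8%, 17.0% and 15.8%. MAP2K3 went from 63.7% ± 0.733 to 79.8% ± 0.710 of the same sum (mean ± SD, n = 3). In these shares DMSO replicate 1 lay with the other DMSO libraries: its MAP2K3 share was 64.1% against 64.2% and 62.9%, and its MAP2K7 share was the lowest of the 3 but above all erianin values.

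Between the JNK activators, MAP2K4 supplied 11.4%, 7.03% and 6.31% of the pair's TPM with DMSO and 18.6%, 17.1% and 18.3% with erianin. The ratio of MAP2K7 to MAP2K4 was 7.74, 13.2 and 14.9 in the DMSO libraries and 4.38, 4.86 and 4.45 in the erianin libraries. The log2 ratio was lower with erianin (-1.34), and every erianin value was below every DMSO value. The two-sided exact permutation p was 0.1, the smallest possible here, and 0.2 adjusted over the 4 ratios. For MAP2K3 and MAP2K4, which both rose, the mean log2 ratio was 4.46 in either group (permutation p = 1.0), with DMSO ratios of 15.6, 25.5 and 26.8 and erianin ratios of 20.7, 22.7 and 22.7. In this pair DMSO replicate 1 lies below all other libraries.

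**Figure D3:**
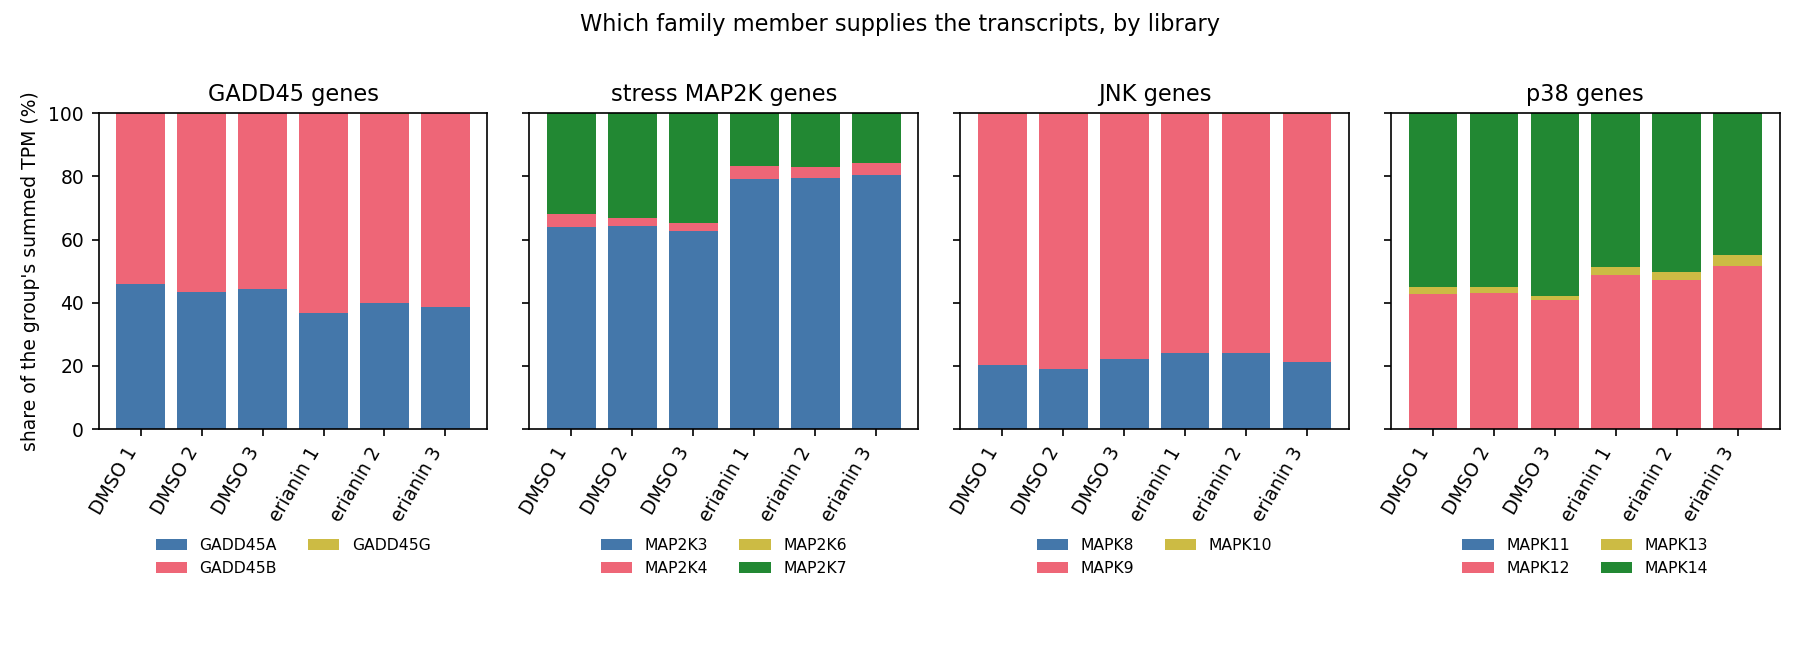
Share of each gene in the summed TPM of its family (vertical axis, percent) in each of the 6 libraries, for the GADD45, stress MAP2K, JNK and p38 genes. The MAP2K7 share (green, second panel) is 31.8% to 34.8% in the DMSO libraries and 15.8% to 17.0% in the erianin libraries, and MAP2K3 takes most of the rest.

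MAPK8 and MAPK9 encode JNK1 and JNK2. MAPK8 (chromosome 10, 48306639 to 48439360, plus strand) was at 24.4, 18.2 and 20.0 CPM with DMSO and 22.3, 23.2 and 18.2 CPM with erianin. MAPK9 (chromosome 5, 180233143 to 180292099, minus strand) was at 62.8, 51.2 and 45.8 CPM with DMSO and 46.5, 48.4 and 44.0 CPM with erianin. The groups overlapped for both, and DMSO replicate 1 was the highest library of both. Neither was called by edgeR (0.03 ± 0.16, adjusted p = 0.92 for MAPK8, and -0.20 ± 0.14, adjusted p = 0.32 for MAPK9). Without DMSO replicate 1 the values were 0.17 ± 0.10 (edgeR adjusted p = 0.17) and -0.05 ± 0.08 (edgeR adjusted p = 0.59).

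Per length, JNK2 transcripts outnumbered those of JNK1 in every library. MAPK9 held 77.6% to 80.9% of the JNK TPM with DMSO and 75.8% to 78.5% with erianin. The log2 ratio of MAPK9 to MAPK8 differed by -0.22 between groups (two-sided exact permutation p = 0.2, 0.27 adjusted over the 4 ratios). MAPK10, which encodes the neuronal JNK3, made up 0.0833% to 0.116% of the JNK TPM, at 29 to 36 counts per library. It was at 0.819 to 1.15 CPM against 18.2 to 24.4 CPM for MAPK8. In TPM the gap was wider (0.00791 to 0.0113 against 1.75 to 2.72), so the size of this share depends on the length used.

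MAPK14 encodes p38 alpha, the main p38 kinase of most cells (chromosome 6, 36027677 to 36111236, plus strand). It was at 47.9, 70.5 and 78.4 CPM with DMSO and 75.1, 81.2 and 75.0 CPM with erianin. The groups overlapped, with DMSO replicate 1 far below the other libraries. It was not called with all 6 libraries (0.23 ± 0.18, edgeR adjusted p = 0.39), nor without DMSO replicate 1 (0.06 ± 0.07, edgeR adjusted p = 0.49).

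Within the p38 family, 2 genes outside the 10 rose. MAPK12, which encodes p38 gamma, rose from 60.3 ± 12.97 to 96.8 ± 7.30 CPM (0.68 ± 0.17, edgeR adjusted p = 0.028). MAPK13, which encodes p38 delta, rose from 1.13 ± 0.299 to 2.56 ± 0.662 CPM (1.17 ± 0.28, edgeR adjusted p = 0.024). MAPK14 held 55.1%, 54.9% and 57.8% of the p38 TPM with DMSO and 48.8%, 50.2% and 44.9% with erianin, while MAPK12 held 40.9% to 42.9% and 47.0% to 51.4%. The call of MAPK12 ended without any 1 erianin library (edgeR adjusted p = 0.084, 0.089 and 0.11 without replicates 1, 2 and 3) and on both log2 TPM scales (limma adjusted p up to 0.11). That of MAPK13 ended without DMSO replicate 3 (edgeR adjusted p = 0.067) and without erianin replicate 1 (0.053), 2 (0.079) or 3 (0.086). MAPK11 had 0 to 4 counts per library.

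In order of TPM, GADD45B, MAP2K3 and GADD45A were the 3 most abundant members in all 6 libraries. GADD45B came first in each DMSO library and MAP2K3 in each erianin library. MAP2K3 reached 91.8, 96.7 and 101 TPM with erianin, above the 67.5, 68.7 and 77.0 TPM of GADD45B. MAP2K7 had rank 4 with DMSO and rank 5 with erianin, where it lay next to MAPK14 with overlapping values (19.45 to 20.7 against 20.6 to 22.85 TPM). MAP2K4 had rank 8, MAPK8 rank 9 and GADD45G rank 10 in every library. With DMSO the values of MAP2K4 and MAPK8 overlapped across libraries (2.18 to 2.30 and 1.753 to 2.202 TPM), and with erianin they did not (4.26 to 4.44 and 2.09 to 2.72 TPM). Levels from different libraries are set side by side only roughly here, since the TPM columns summed to 39.2% of the full TPM scale in DMSO replicate 1 and to 63.6% to 66.8% in the others.

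A wider set of 102 genes of these pathways, none of them among the 10, was read in 9 lists. Of these, 95 were tested, 17 rose and 11 fell, with a median log2 fold change of -0.05 against -0.003 for all genes. The share called, 28 of 95, stands beside 24.2% of all genes. Without DMSO replicate 1, 38 rose and 30 fell, where 55.3% of all genes were called (27.8% higher and 27.4% lower). The median then turned to 0.04, against 0.03 for all genes. The counts of each list below are to be read against the same 2 shares, 24.2% with all 6 libraries and 55.3% without DMSO replicate 1. The genes named below are among those with the smallest p in each list, and MAP3K4, added after its values were seen because GADD45 proteins bind it. On the log2 TPM scales the calls of MAP3K1, MAP3K12, TXN, FLNA, DUSP16 and HSF1 ended (limma adjusted p = 0.051 to 0.51). Calls that end on these scales, here and below, come from TPM columns of unequal sums that were not rescaled.

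**Figure D4:**
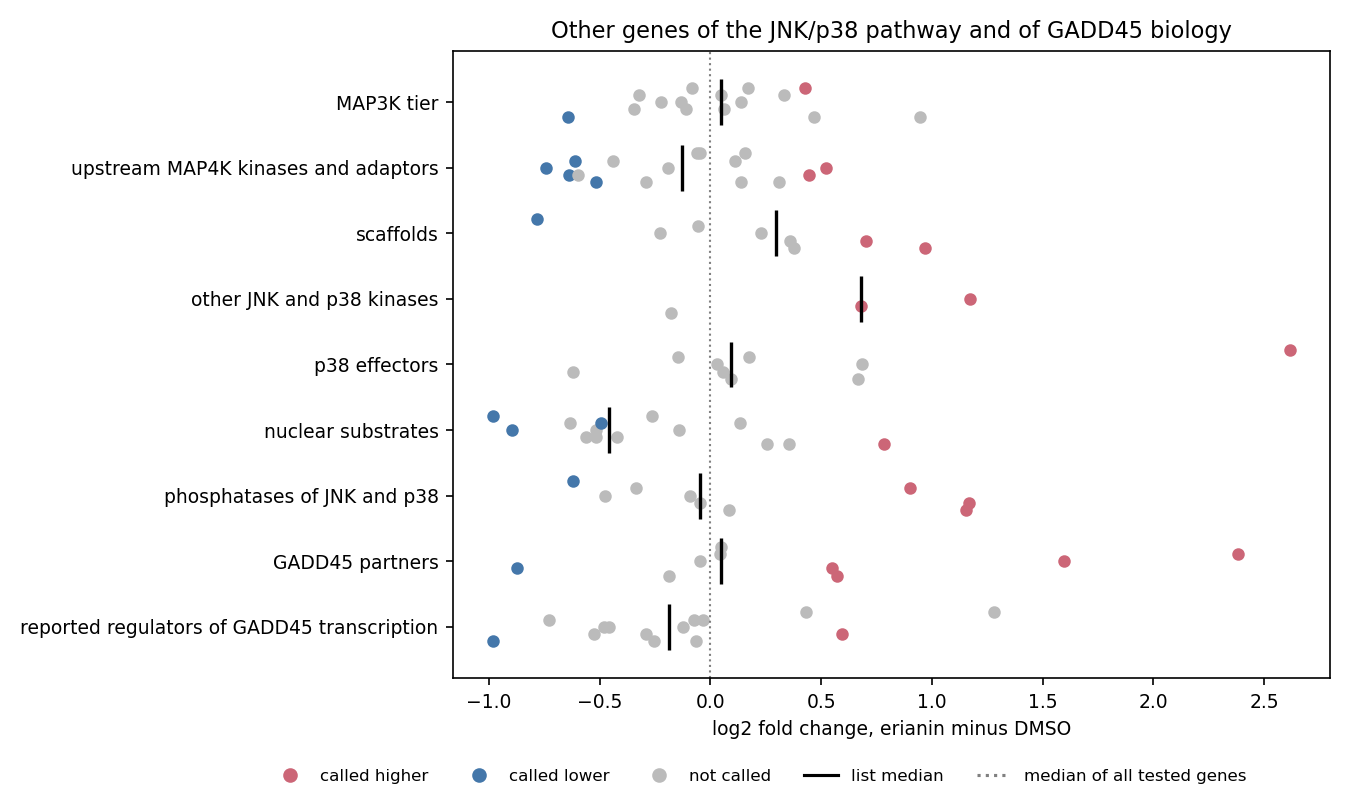
Log2 fold change (erianin minus DMSO) of each tested gene in 9 lists of pathway genes outside the 10, with genes called higher in red, called lower in blue and not called in grey. Black lines are list medians and the dotted line is the median of all tested genes. Calls in both directions appear in 7 of the 9 lists, and the called genes of the lists of other JNK and p38 kinases and of p38 effectors lie above the dotted line.

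Upstream of the MAP2K genes, changes went both ways. Of 15 tested MAP3K genes 1 rose and 1 fell (median 0.05), and 6 and 4 did when DMSO replicate 1 was left out (median 0.08). MAP3K1, which encodes MEKK1, a kinase that feeds JNK, fell from 58.4 ± 9.96 to 37.5 ± 0.644 CPM (-0.64, edgeR adjusted p = 0.016). MAP3K12 rose from 28.0 ± 2.36 to 37.7 ± 1.46 CPM (0.43, edgeR adjusted p = 0.029). MAP3K13, at 7 to 20 counts per library, was not called (edgeR adjusted p = 0.068). MAP3K4, the MAP3K that GADD45 proteins bind, was at 38.8 ± 11.7 CPM with DMSO and 40.0 ± 0.490 CPM with erianin (edgeR adjusted p = 0.89), and without DMSO replicate 1 it was called higher (0.33, edgeR adjusted p = 0.00079). The call of MAP3K1 ended without any 1 erianin library (edgeR adjusted p = 0.066 to 0.086), and that of MAP3K12 without any 1 library other than DMSO replicate 1 (edgeR adjusted p = 0.055 to 0.12) and with no filter on low counts (0.051).

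Among 16 tested MAP4K kinases and adaptors 2 rose and 4 fell (median -0.13), or 8 and 7 once DMSO replicate 1 was left out, where the median turned to 0.07. MAP4K2, a germinal centre kinase that feeds JNK, fell from 326 ± 22.2 to 209.5 ± 11.4 CPM (-0.64, edgeR adjusted p = 0.0064). TAB1, a partner of the MAP3K TAK1 that also binds p38 alpha, fell from 127.5 ± 2.22 to 83.5 ± 6.12 CPM (-0.61, edgeR adjusted p = 0.0070). TXN, described above, was the third. The calls of MAP4K2 and TAB1 ended without erianin replicate 1 or 2 (edgeR adjusted p = 0.053 to 0.059) and on the log2 TPM scales (limma adjusted p = 0.32 to 0.34). That of TXN ended without erianin replicate 1 (edgeR adjusted p = 0.087) or 2 (0.092) or DMSO replicate 2 (0.070) or 3 (0.060).

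Of 8 tested scaffold genes 2 rose and 1 fell (median 0.29), or 2 and 2 once DMSO replicate 1 was left out (median 0.11). ARRB2, which encodes a beta-arrestin that can hold JNK3 with its MAP3K, fell from 224 ± 24.5 to 130.1 ± 3.15 CPM (-0.79, edgeR adjusted p = 0.0044). FLNA, the actin crosslinker filamin A, rose from 616 ± 159.6 to 1208 ± 93.9 CPM (0.97, edgeR adjusted p = 0.014). SH3RF1, a JNK scaffold with a ubiquitin ligase domain, rose from 1.78 ± 0.288 to 2.89 ± 0.305 CPM (0.70, edgeR adjusted p = 0.038). The call of FLNA ended without any 1 erianin library (edgeR adjusted p = 0.057 to 0.068), and that of SH3RF1 without any 1 library other than DMSO replicate 1 (edgeR adjusted p = 0.092 to 0.15) and with no filter on low counts (0.052). ARRB2 lost its call on the log2 TPM scales (limma adjusted p = 0.065 and 0.069).

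Downstream of p38, 1 of 9 tested effectors rose and the other 8 were not called (median 0.09). Leaving out DMSO replicate 1 gave 6 higher and 1 lower (median 0.25), beside 55.3% of all genes called. The one called was MKNK2, an eIF4E kinase, at 80.7 ± 8.53 CPM with DMSO and 495 ± 33.0 CPM with erianin (2.62 ± 0.12, edgeR adjusted p = 0.00021). The chromatin kinase genes RPS6KA5 (-0.62, edgeR adjusted p = 0.053) and RPS6KA4 (0.67, edgeR adjusted p = 0.10) were not called with all libraries, and were called lower and higher without DMSO replicate 1 (-0.37 and 0.42). RPS6KA5 was called in 7 of 17 alternatives and RPS6KA4 in 3.

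Of 14 tested nuclear substrates 1 rose and 3 fell (median -0.46), or 4 and 8 once DMSO replicate 1 was left out (median -0.24). JUN, the JNK substrate that gave the kinase its name, rose from 21.7 ± 1.17 to 37.3 ± 2.46 CPM (0.78 ± 0.11, edgeR adjusted p = 0.0041). HSF1, the heat shock factor, fell from 197 ± 4.51 to 139.7 ± 13.9 CPM (-0.49, edgeR adjusted p = 0.017). Without DMSO replicate 2 (edgeR adjusted p = 0.058) or erianin replicate 1 (0.11) or 2 (0.10) HSF1 was not called.

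Of 9 tested phosphatases that act on JNK and p38, 3 rose and 1 fell (median -0.05), or 3 and 2 once DMSO replicate 1 was left out, where the median turned to 0.04. DUSP1, an inducible MAP kinase phosphatase, rose from 8.18 ± 1.38 to 18.2 ± 2.697 CPM (1.16 ± 0.18, edgeR adjusted p = 0.0055). DUSP10, which prefers JNK and p38, rose from 2.54 ± 0.405 to 4.75 ± 0.706 CPM (0.90, edgeR adjusted p = 0.017). DUSP16, a JNK phosphatase, fell from 19.1 ± 3.09 to 12.4 ± 0.795 CPM (-0.62, edgeR adjusted p = 0.023). The call of DUSP10 ended without DMSO replicate 3 (edgeR adjusted p = 0.052) or erianin replicate 1 (0.082) or 2 (0.077). That of DUSP16 ended without any 1 erianin library (edgeR adjusted p = 0.079 to 0.11) and with scaling by total counts alone (0.052).

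Of 9 tested partners of GADD45 proteins 4 rose and 1 fell (median 0.05, beside 24.2% of all genes called), or 5 and 2 once DMSO replicate 1 was left out (median 0.33, beside 55.3%). CCNB1, the cyclin B1 gene, rose from 114 ± 19.9 to 345 ± 14.7 CPM (1.598 ± 0.145, edgeR adjusted p = 0.0013) while its kinase gene CDK1 fell from 145 ± 29.1 to 79.2 ± 5.97 CPM (-0.87 ± 0.16, edgeR adjusted p = 0.0094). CDKN1A, the cell cycle inhibitor p21, rose from 2.99 ± 0.891 to 15.6 ± 1.65 CPM (2.38 ± 0.23, edgeR adjusted p = 0.0016). The call of CDK1 ended without any 1 erianin library (edgeR adjusted p = 0.053 to 0.055).

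Among 14 tested genes known to regulate GADD45 transcription 1 rose and 1 fell (median -0.19), or 3 and 5 once DMSO replicate 1 was left out (median -0.10). STAT3 rose from 53.1 ± 3.01 to 80.02 ± 0.801 CPM (0.59 ± 0.10, edgeR adjusted p = 0.0067). EGR1, an immediate early factor, was at 57.3, 20.0 and 20.8 CPM with DMSO and 73.2, 82.3 and 82.4 CPM with erianin. It was not called with all 6 libraries (1.28 ± 0.40, edgeR adjusted p = 0.053), and without DMSO replicate 1 it was called higher (1.97 ± 0.08, edgeR adjusted p = 1.3e-15). It was called higher in 9 of 17 alternatives, among them DESeq2 (adjusted p = 0.0056) and limma-voom (adjusted p = 0.028).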

How the data were processed

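RNA sequencing of 6 SU-DHL-8 libraries, 3 per group, was analysed from 2 deposited tables. Whole-number counts per gene stand in one table and TPM values in the other, as the authors deposited them and per the file headers. Tools named in the submitters' processing notes are STAR 2.7.10, fastp 0.23.2, StringTie 2.2.1 and featureCounts 2.0.1, and the build is GRCh38. How strand and multi-mapping were handled is not stated in those notes. Sample titles gave the groups and replicate numbers. Repeats of a symbol (61 entries) were left out.

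The test was edgeR 4.0.16 (R 4.3.3), quasi-likelihood, on TMM-scaled counts with treatment as the single term, over 11550 genes kept by filterByExpr. Adjusted p-values are Benjamini-Hochberg over all of these, called at 0.05. Each SE is the log2 fold change, without its sign, divided by root F. Gene ratios used two-sided exact permutation tests (scipy 1.17.1). Gene positions came from GENCODE 29, and 9 of the 10 members matched a RefSeq promoter. The fits were also run on simulated counts with the same spread in every gene and library. Those held no outlying library, so they cannot speak for the effect of DMSO replicate 1.

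Named genes were the 10 members, up to 3 genes with the smallest p per pathway list (1 is not reported here), and the 3 genes most like each tested GADD45 gene. The members and lists were chosen with earlier results of these data known. Alternatives were DESeq2 size factors, upper-quartile and total-count scaling, no filter, a filter of 1 CPM in 3 libraries, DESeq2 1.42.0, limma-voom and limma-trend (limma 3.58.1) on log2(TPM + 1) and log2(TPM + 0.1). Others were the replicate number as a block, offsets for GC content and length (mgcv 1.9.3; 11404 genes, 98.7%), and each library left out. TPM columns were used as deposited, without rescaling to equal sums.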

Additional observations from a re-analysis of the deposited data

How the results depend on the processing

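Leaving out 1 library at a time gave 1 to 2 member genes higher (2 with all 6 libraries) and 0 to 2 lower (1 with all). It gave 6 to 38 pathway genes higher (17 with all) and 2 to 30 lower (11 with all). Over all genes it gave 407 to 3278 higher (1368 with all) and 338 to 3227 lower (1423 with all), each highest without DMSO replicate 1 and lowest without erianin replicate 2. Member genes called lower numbered 2 with DESeq2 and with GC content and length offsets, and 0 on the log2(TPM + 1) and log2(TPM + 0.1) scales. Pathway genes called lower numbered 7 with total counts alone, 19 with DESeq2, 26 with the offsets, and 2 and 1 on the TPM scales. All genes called lower numbered 918 with total counts alone, 2457 with the offsets, and 262 and 245 on the TPM scales. Upper-quartile scaling called 1763 higher and 1093 lower, total counts alone 1840 higher, the offsets 1749 higher, and the TPM scales 1408 and 1263 higher. The median of all genes moved by 0.11 with total counts alone and by 0.205 and 0.28 on the TPM scales. Relative to that median MAP2K7 stood at -0.63, -0.55 and -0.64.

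Genes that were not called changed sign as follows. The log2 fold change of GADD45B was 0.07 with upper-quartile scaling, 0.10 with total counts alone, 0.008 with the 1 CPM filter, and 0.26 and 0.27 on the TPM scales. Relative to the median of all genes it stood at -0.008 with total counts alone, and at 0.059 and -0.011 on the TPM scales. With 1 library left out it ran from -0.107 (without DMSO replicate 1) to 0.04 (without DMSO replicate 2). MAPK8 ran from -0.068 (without DMSO replicate 2) to 0.168 (without DMSO replicate 1). On the TPM scales MAPK9 was at 0.073 and 0.081, MAP3K5 at 0.089 and 0.096, and MAPK10 at 0.001 and 0.008. The median of all genes was 0.202 and 0.277 there. MAPK9 stood at -0.129 and -0.195 relative to that median, and MAP3K5 at -0.113 and -0.181, with the sign of the main fit. The ratio of MAP2K3 to MAP2K4 (-0.003 with all libraries) ran from -0.251 (without DMSO replicate 1) to 0.139 (without DMSO replicate 3). The cause was not tested.

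Deviations of same-numbered libraries from their group means correlated by 0.167, -0.143 and 0.231, within the range of the other pairs (-0.291 to 0.248). DMSO replicate 1 went with erianin replicates 1 and 2 (0.167 and 0.172) and against 3 (-0.291). DMSO replicates 2 and 3 went with erianin replicate 3 (0.248 and 0.231) and against 1 and 2 (-0.145 to -0.129). Deviations from a group mean cancel out over the libraries of that group. These correlations are therefore not independent, and opposite signs among them are partly built in. What else lies behind the pattern was not tested. With the replicate number as a block, 1139 genes were higher and 1157 lower, with 2 member genes higher and 1 lower. Of the named pathway genes, MAP3K12 (adjusted p = 0.057), SH3RF1 (0.074) and TXN (0.05) lost their calls under it. At these counts GADD45G, MAPK11 and MAP2K6 are too low for a comparison.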
